A study of Mus musculus with 6 samples.

Results

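Interferon response genes were followed in lung RNA of mice labelled C57, DBA or ICR, with and without cigarette smoke. The set was a list of 36 genes of the interferon system: receptor chains, transcription factors, the ubiquitin-like modifier Isg15 with its protease, antiviral effectors, interferon-inducible GTPases and DNA sensors of the p200 family. Members were all probe sets of the Affymetrix array whose only gene symbol in the platform annotation was on that list. This gave 29 of the 8252 genes with such a probe set, and 36 of 12488 probe sets. Stat2, Irf2, Oas1a, Oasl2, Bst2, Ifi203 and Ifi205 had no probe set with a single symbol, and their expression was not analysed here. Signal was high enough for testing in 29 probe sets of 26 genes.

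The study held 6 arrays, 1 control and 1 smoked array each for C57, DBA and ICR. Smoked mice received the smoke of 3 cigarettes a day on 5 days of the week for 4 weeks, and control lungs are labelled normal. The stated subject is whether lungs resist or are sensitive to this exposure. The sources used here do not state age, sex, substrain or whether 1 mouse or a pool was hybridised, and ICR is an outbred stock. With 1 array per strain and exposure, the 2 arrays of a strain differ in exposure. The p-values rest only on how smoke differences vary between strains in these samples, with variance partly borrowed from other probe sets. No spread between mice of the same strain and exposure enters them.

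Interferons are secreted signals of infection. Type I interferons bind a receptor made of Ifnar1 and Ifnar2, interferon gamma binds Ifngr1 and Ifngr2, and both receptors signal through JAK kinases and STAT factors. A complex that holds Irf9 binds the interferon-stimulated response element (ISRE), the gamma-activated site (GAS) is a further element of such genes, and the genes next to these elements encode proteins that block viral replication or attack membranes of vacuoles that hold pathogens. In lung, epithelium, macrophages and dendritic cells all carry these receptors.

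Values are the probe set intensity, unscaled as deposited, and levels on the log2 scale are log2 of intensity plus 8.05 after quantile normalization between arrays. Median intensity over all probe sets was 60.1 on the control and 60.5 on the smoked array of C57, 68.7 and 84.8 on the DBA arrays, and 52.2 and 25.9 on the ICR arrays. The ICR smoked array was thus the dimmest, and its ratio of 3′ to 5′ signal for beta-actin, a sign of RNA quality, was 4.75. This ratio was 2.75 and 2.51 on the C57 arrays, 1.46 and 1.66 on the DBA arrays and 1.63 on the ICR control array, and its part in the results was not tested. The Gapdh ratio was likewise higher in C57 (1.69 and 1.38) than in DBA (0.967 and 0.952), so that in DBA minus C57 strain and this sign of RNA quality cannot be told apart. Summed intensity of 10 neutrophil markers was 18881 on the DBA control array and 1185 to 3209 on the others. Summed liver marker intensity was 5965 on the DBA smoked array and 244 to 1078 elsewhere, and skeletal muscle markers were higher on the C57 arrays (6246 and 4391) than on the others (201 to 1156). Markers of alveolar and airway epithelium summed to 19463 to 33618 and were led by Sftpc and Scgb1a1 on every array, as the label lung requires. In whole-tissue RNA, fewer cells of a type and less RNA per cell cannot be told apart.

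The ligands themselves were dim. Ifng, the gene of interferon gamma, read 1.10 to 3.37 on the 6 arrays, below the pseudocount of 8.05 on each, and Ifnb1, interferon beta, read 6.41 to 17.0. Over the 9 ligand genes measured, the brightest value of any of 10 probe sets was 71.4, and 3 probe sets were tested. The list name therefore describes what these genes are known for, and says nothing of interferon in these lungs.

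No interferon response gene was called for smoke. None of the 29 probe sets tested was called for the smoke effect shared by the 3 strains (limma, Benjamini-Hochberg adjusted p below 0.05), where 0.0403% of the 7453 probe sets tested were called. At an unadjusted p below 0.05 the members also gave 0 of 29, against 1.64% of all. The shared effects ran from -0.40 ± 0.26 (log2 ± SE) for Ifnar2, on the probe set 101015_s_at, to 0.28 ± 0.20 for Irf9. Their median was -0.02, beside 0.01 for all probe sets tested, and 14 of 29 lay above 0, where 51.4% of all did.

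Few members went the same way in all 3 strains. This held for 3 of 29 members, or 10.3%, against 17.7% of all probe sets tested. Ifi35, a protein that binds the partner Nmi in interferon-treated cells, was higher on the smoked array by 0.16 for C57, 0.11 for DBA and 0.35 for ICR (log2). Irf1, an activator induced by interferon gamma, was lower by 0.19, 0.10 and 0.03 in these strains, and Ifi204 (98465_f_at), a p200 protein, by 0.01, 0.23 and 0.23. None of these differences reached 1.5-fold, and the shared effects of the 3 genes had adjusted p = 1.0.

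**Figure D1:**
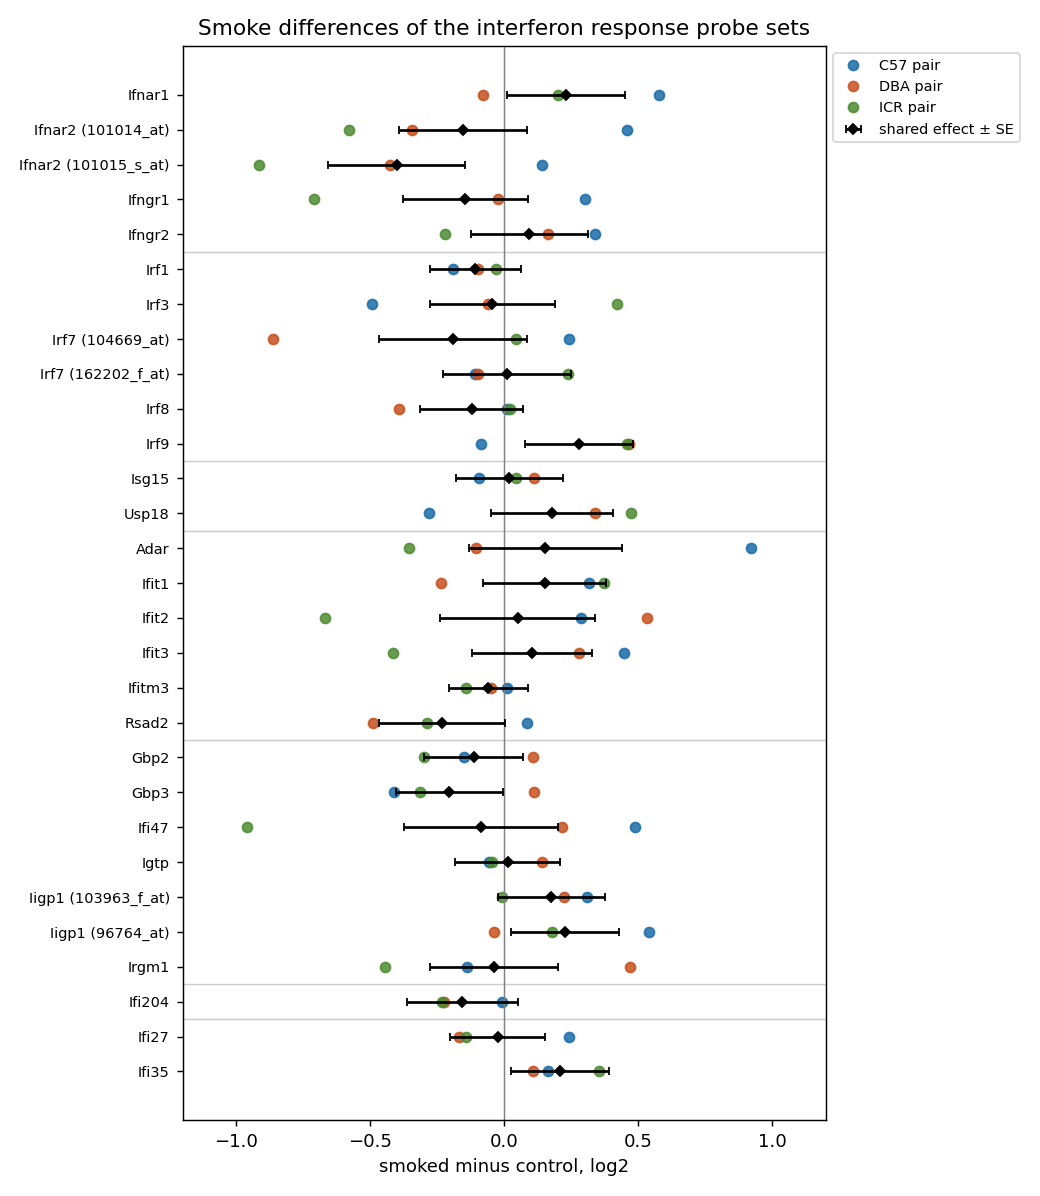
Each row is an interferon response probe set, grouped by role, and the horizontal axis is the smoked minus the control array on the normalized log2 scale. Coloured points are the 3 strain pairs and black diamonds the shared effect with its SE; the diamonds lie between -0.40 and 0.28, and the 3 coloured points of most rows fall on both sides of 0.

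Within a strain 1 array stands against 1, and the pair alone was described and not tested. No member differed 2-fold in C57, DBA or ICR. At least 2-fold different were 1.21% of all probe sets for C57, 3.05% for DBA and 6.48% for ICR. Members were higher on the smoked array for 18 of 29 with C57, 13 with DBA and 11 with ICR, where 48.2%, 53.8% and 51% of all probe sets were. The median member difference (log2) was 0.14 for the C57 pair, -0.04 for DBA and -0.14 for ICR.

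The receptor chains all read higher on the smoked array in C57, without a call. Ifnar1, a chain of the type I receptor, read 78.7 without and 125 with smoke in C57, 128 and 148 in DBA, and 109 and 62.5 in ICR. Ifnar2 (101014_at), the other chain, read 164 and 225 in C57, 256 and 250.5 in DBA, and 321 and 107 in ICR. Ifngr1, which binds interferon gamma, read 191 and 232 in C57, 231 and 278 in DBA, and 225 and 66.6 in ICR. After normalization all 5 receptor probe sets were higher on the smoked array in C57, with a median of 0.34 (log2), under each scaling tried. In DBA 1 of 5 was higher and in ICR 1 of 5, with medians of -0.08 and -0.58, and unscaled these counts became 3 and 0 while the median of all probe sets was 0.31 and -0.87. Ifngr2, the chain that carries JAK2, differed by 0.34 in C57, 0.16 in DBA and -0.22 in ICR.

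Whether 1 strain responded differently from the other strains was tested by letting the smoke effect of that strain differ. No member was called for C57 (background 0.134% of probe sets), DBA (0.711%) or ICR (0%). For ICR, 4 of 29 members had an unadjusted p below 0.05, all lower, where 14.3% of all probe sets did and 7.85% did so in the lower direction. They were the GTPase Ifi47 (-1.31), the RNA-binding effectors Ifit2 (-1.08) and Ifit3 (-0.78), and Ifngr1 (-0.85), each with an adjusted p from 0.302 to 0.347. Ifi47 read 91.9 and 134 in C57, 183 and 262 in DBA, and 141 and 34.0 in ICR. Its ICR smoked value was the lowest of the 6 arrays, unscaled and after normalization, and this array was also the dimmest. For C57 and DBA, 0 members had an unadjusted p below 0.05, where 3.01% and 3.94% of all probe sets did.

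No antiviral effector was called for smoke, and their differences were of mixed direction. Within C57 all 6 probe sets tested were higher on the smoked array after quantile normalization, with a median of 0.30 (log2), and 5 of 6 were unscaled or scaled to a common median. Adar, the enzyme that edits adenosine to inosine in double-stranded RNA, moved most. Its probe set 96188_at read 37.1 and 81.3 in C57, 130 and 147 in DBA, and 60.3 and 22.5 in ICR. The C57 difference was 0.92 (log2) and the C57 response 1.15 above that of the other strains, with adjusted p = 1.0. In DBA 2 of 6 effectors and in ICR 1 of 6 were higher on the smoked array. Unscaled these counts became 5 and 0, while the median of all probe sets was 0.31 and -0.87.

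Ifit1, Ifit2 and Ifit3, tetratricopeptide proteins that bind viral RNA or partner with each other, had smoke differences of unlike sign. Ifit1 read 80.7 and 103 in C57, 106 and 110.5 in DBA, and 58.3 and 37.9 in ICR. Ifit2 read 36.4 and 46.3 in C57, 52.1 and 96.5 in DBA, and 74.5 and 21.9 in ICR. Ifit3 read 221 and 297 in C57, 246 and 368 in DBA, and 197 and 72.7 in ICR. On the normalized scale the ICR difference was 0.37 for Ifit1 but -0.67 for Ifit2 and -0.41 for Ifit3. Ifitm3, a membrane protein that blocks virus entry, read 1674 and 1631 in C57, 2209 and 2407 in DBA, and 1517 and 741 in ICR, and its smoke differences were 0.01, -0.05 and -0.14 (log2).

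No interferon regulatory factor was called for smoke. Irf1 read 680 and 565 in C57, 633 and 735 in DBA, and 516 and 264 in ICR, and its normalized level stayed between 8.95 and 9.17. Irf8, a factor of the myeloid lineage, read 300.1 and 290.2 in C57, 366 and 343 in DBA, and 234 and 118 in ICR. Irf7, the master factor of type I interferon genes, read 56.1 and 68.9 in C57, 113 and 73.0 in DBA, and 41.0 and 21.1 in ICR on the probe set 104669_at. Its DBA control array stood apart, and the DBA difference was -0.86 on this probe set and -0.10 on 162202_f_at. That array also carried the high neutrophil markers, and their part in the value was not tested. Irf9 was higher with smoke in DBA (0.47) and ICR (0.46) and lower in C57 (-0.09), and Irf3, the sensor-activated factor (99103_at), differed by -0.49, -0.06 and 0.42 in C57, DBA and ICR.

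All calls among the members came from the strain comparisons, and 3 of the 4 were of Iigp1. Iigp1, an immunity-related GTPase that loads onto vacuoles of intracellular parasites, was higher in DBA than in C57 and ICR. All 7 GTPase probe sets lay higher in DBA than in C57, where 46% of all probe sets did. The differences were 0.72 to 1.80 on the log2 scale, and 1 of the 7 passed the test. Usp18, the protease that removes Isg15 from proteins, was lower in ICR than in C57. Over the 29 members there was 1 call in DBA minus C57, 1 in ICR minus C57 and 2 in ICR minus DBA. The array probes were not compared with DBA or ICR sequence, and the part of probe match in the strain differences was not tested.

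Short stretches before the start of 5 GTPase genes and 3 other members are shown to set the ISRE core beside the strain differences. All 5 GTPases had DBA minus C57 differences above 0, with a core before 4 of them and none before Ifi47. The other 3, Rsad2, Isg15 and Ifit1, carry the core and had differences of 0.73, -0.31 and -0.03 (log2). The stretches are the 130 bases before the annotated start from the RefSeq promoter table (GRCm38.p6), 5′ to 3′ on the strand of the gene. For Gbp3 the first listed start was used. Capitals mark matches to the ISRE core, spelled GAAA, NN and GAAA without a gap, or to the GAS letters TTCNNNGAA. Both strands were searched, so that an ISRE core on the other strand reads TTTC, NN and TTTC, and overlapping matches merge. The reference is of C57BL/6J origin and holds no DBA or ICR allele.
Igtp (chr11:58199426-58199555, + strand): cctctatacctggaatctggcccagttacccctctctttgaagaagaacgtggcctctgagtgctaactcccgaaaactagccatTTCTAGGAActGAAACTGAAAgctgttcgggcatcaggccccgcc
Irgm1 (chr11:48871421-48871550, - strand): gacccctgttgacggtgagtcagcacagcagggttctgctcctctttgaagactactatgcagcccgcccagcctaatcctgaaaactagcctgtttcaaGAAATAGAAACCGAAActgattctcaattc
Gbp2 (chr3:142620533-142620662, + strand): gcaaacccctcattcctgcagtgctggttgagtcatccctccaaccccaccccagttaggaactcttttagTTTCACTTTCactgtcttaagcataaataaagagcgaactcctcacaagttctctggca
Gbp3 (chr3:142559914-142560043, + strand): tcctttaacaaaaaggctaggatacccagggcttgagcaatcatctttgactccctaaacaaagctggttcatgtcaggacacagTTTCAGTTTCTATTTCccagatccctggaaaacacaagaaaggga
Ifi47 (chr11:49076457-49076586, + strand): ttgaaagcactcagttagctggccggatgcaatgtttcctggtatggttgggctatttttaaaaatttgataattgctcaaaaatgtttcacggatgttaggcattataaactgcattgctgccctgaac
Rsad2 (chr12:26456453-26456582, - strand): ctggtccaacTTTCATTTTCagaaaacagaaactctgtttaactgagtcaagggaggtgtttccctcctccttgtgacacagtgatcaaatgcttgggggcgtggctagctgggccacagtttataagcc
Isg15 (chr4:156200819-156200948, - strand): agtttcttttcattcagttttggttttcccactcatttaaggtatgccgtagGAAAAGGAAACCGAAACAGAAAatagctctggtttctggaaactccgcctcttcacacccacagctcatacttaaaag
Ifit1 (chr19:34640759-34640888, + strand): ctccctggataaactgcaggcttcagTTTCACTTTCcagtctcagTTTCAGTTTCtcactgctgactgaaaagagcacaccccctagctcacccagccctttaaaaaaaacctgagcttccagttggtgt

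Igtp carried a GAS match and an ISRE core next to each other, 45 to 25 bases before the start. Irgm1 had an overlapping pair of ISRE cores and Isg15 3 of them in 1 run. Gbp2, Gbp3, Rsad2 and Ifit1 had theirs on the other strand, and Ifi47 had neither set of letters in the stretch shown. Gbp3 has a further annotated start, not shown, whose window held neither set of letters. Whole windows of 300 bases ran from 250 before to 50 after the start. In these the ISRE core was found for 16 of 30 listed genes with a window (53.3%), against 3.99% of all 27025 genes. The 30 included Stat2, Irf2, Oas1a, Oasl2, Bst2, Ifi203 and Ifi205, which had no probe set with a single symbol and so no expression value here. All of these but Oasl2 held the core. The GAS letters were found for 13 of 30 (43.3%), against 9.55%. The table held no entry for Iigp1, Usp18, Mx1, Mx2, Ifi27 and Ifi204. Among members tested, the DBA minus C57 difference had a median of 0.73 (log2) over 9 probe sets with an ISRE core and 0.19 over 15 without, given as a description. Of the 9, 4 were GTPases already seen to be high in DBA, and the other 5, Rsad2 (0.73), Ifitm3 (0.43), Ifit3 (0.08), Ifit1 and Isg15, had a median of 0.08, beside 0.17 over the 14 non-GTPase probe sets without a core. For the GAS letters the medians were 0.23 over 10 probe sets with a match and 0.17 over 14 without.

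Iigp1 showed the largest strain difference of the members. Its probe set 96764_at read 115 without and 171 with smoke in C57, 520.5 and 630.4 in DBA, and 145 and 83.3 in ICR. The normalized levels were 6.78 and 7.32 in C57, 8.87 and 8.83 in DBA, and 7.37 and 7.55 in ICR (log2). Both DBA arrays lay above the other 4, with or without scaling, and the DBA arrays did not overlap those of either strain. DBA exceeded C57 by 1.80 ± 0.25 (log2 ± SE), or 3.49-fold, with adjusted p = 0.00762. This was the only member called in DBA minus C57, 1 of 29, where 1.73% of all probe sets were called, 0.872% higher and 0.859% lower. The call held with each array left out in turn, and unscaled the difference was 1.97 with adjusted p = 0.0875.

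A second probe set of Iigp1, 103963_f_at, read 111 and 139 in C57, 271 and 390 in DBA, and 69.9 and 34.3 in ICR. The suffix marks probes shared within a gene family, so related GTPases may add to its signal. DBA exceeded C57 by 1.15 ± 0.25 here, with adjusted p = 0.0568, which missed the threshold. Against DBA, ICR was lower on both probe sets, by 1.66 ± 0.25 on 103963_f_at (adjusted p = 0.0150) and by 1.39 ± 0.25 on 96764_at (adjusted p = 0.0374). These were 2 of 29 members, where 1.17% of all probe sets were called in ICR minus DBA, 0.51% higher and 0.657% lower. Leaving out the ICR control array gave adjusted p = 0.0912 and 0.145, leaving out the ICR smoked array 0.0913 and 0.110, and for 96764_at leaving out the DBA control array 0.120.

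The other GTPases also had the highest unscaled intensities on the DBA arrays, without passing the test. Igtp (also known as Irgm3), a regulator of the vacuole-attacking GTPases, read 138 and 130 in C57, 256 and 350.1 in DBA, and 90.7 and 43.5 in ICR. DBA exceeded C57 by 0.94 ± 0.24 (adjusted p = 0.110), and ICR differed from DBA by -1.21 ± 0.24 (adjusted p = 0.0555). The DBA arrays did not overlap the others.

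Irgm1, a further regulator of this family that also acts in autophagy, read 72.5 and 64.6 in C57, 130 and 222 in DBA, and 115 and 40.7 in ICR. Both C57 arrays were the lowest after normalization, while unscaled the ICR smoked array read lowest. After normalization the ICR control array (7.04) lay between the DBA arrays (6.86 and 7.32). The DBA minus C57 difference was 0.94 ± 0.29 with adjusted p = 0.206.

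The guanylate-binding proteins Gbp2 and Gbp3, which coat and lyse pathogen vacuoles, went alike. Gbp2 read 329 and 281 in C57, 506 and 675 in DBA, and 330.0 and 134 in ICR. Gbp3 read 219 and 156 in C57, 347 and 463 in DBA, and 232 and 93.4 in ICR. For both genes the C57 arrays were lowest and the DBA arrays highest after normalization, with no overlap. Unscaled, the DBA arrays were again highest, but the ICR smoked array read lowest for both. The DBA minus C57 difference was 0.82 ± 0.23 for Gbp2 (adjusted p = 0.148) and 0.94 ± 0.24 for Gbp3 (adjusted p = 0.117). Ifi47, another GTPase of the Irg family, differed by 0.72 ± 0.35 (adjusted p = 0.494).

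**Figure D2:**
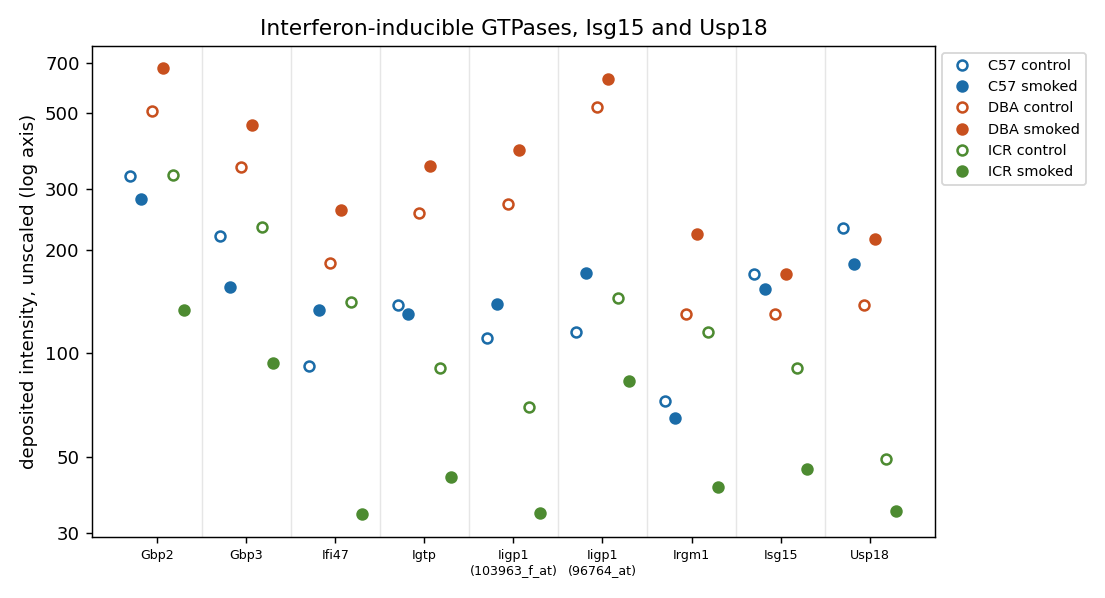
Deposited intensity, unscaled and on a log axis, of the 7 GTPase probe sets, Isg15 and Usp18 on the 6 arrays; open points are control and filled points smoked arrays, coloured by strain. For each GTPase probe set the DBA arrays are the highest, and for Usp18 the ICR arrays are the lowest at 49.1 and 34.8; the ICR smoked array has the lowest median intensity overall.

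As a group, the 7 GTPase probe sets had a median DBA minus C57 difference of 0.94 (log2), beside -0.03 for all probe sets tested. Both DBA arrays lay above the 4 others for 6 of 7, all but Irgm1, where 9.59% of all probe sets did so. The GTPase median was 1.11 unscaled and 0.81 with arrays scaled to a common median, and all 7 were above 0 in each. The median of all probe sets was 0.14 and -0.16 there. Without the DBA control array, which held the raised neutrophil markers, the GTPase median was 1.18. Without the DBA smoked array, which held the raised liver markers, it was 0.71. Summed intensity of 10 dendritic cell markers was 9453 and 9386 in C57, 13038 and 10559 in DBA, and 5772 and 3598 in ICR, with a median normalized DBA minus C57 difference of 0.08. The monocyte and macrophage markers summed to 5050 and 6761 in C57, 7928 and 5746 in DBA, and 6463 and 3612 in ICR, with a median DBA minus C57 difference of 0.31 over the 8 tested and no call. Among these 8, Ccr2 differed by 0.90, Cd68 by 0.70, Csf1r by 0.57, Fcgr1 by 0.42 and Lyz2 by 0.20 (log2). The others lay below 0, with Cd14 at -0.72, Mrc1 at -0.38 and Chil3 at -0.14. The median over the 8 neutrophil markers tested was 1.39. Over all 10 neutrophil markers the mean level was 9.535 on the DBA control and 6.07 on the DBA smoked array, beside 6.095 and 6.20 in C57 (log2). The part of these cells in the GTPase difference was not tested. In ICR minus DBA 0 of 7 were above 0, with a median of -0.62. This was -1.255 without the ICR control array, -0.39 (1 of 7 above 0) without the DBA smoked array, -0.40 (2 of 7) without the ICR smoked array, and -1.52 unscaled, where the median of all probe sets was -0.89. In ICR minus C57, 5 of 7 were above 0, with a median of 0.32, which was 0.18 without the control array of C57 or of ICR and 0.09 with a common median. Unscaled, 1 of 7 was above 0 and the median was -0.51, beside -0.73 for all probe sets.

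Usp18 and Isg15 ran in the order C57, DBA, ICR. Usp18 read 231 without and 182 with smoke in C57, 138 and 215 in DBA, and 49.1 and 34.8 in ICR. After normalization the levels were 7.68 and 7.39 in C57, 6.94 and 7.28 in DBA, and 5.92 and 6.39 in ICR, and no strain overlapped another. ICR was lower than C57 by 1.38 ± 0.28 (log2 ± SE), 0.384 times its level, with adjusted p = 0.0424. This was 1 of 29 members called in ICR minus C57, where 2.29% of all probe sets were called, 1.37% lower and 0.926% higher. The adjusted p was 0.487 without the C57 control array, 0.218 without the control array of ICR and 0.0647 without its smoked array, and the difference stayed below 0 in all 15 alternatives.

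Isg15, a ubiquitin-like protein that is conjugated to newly made proteins, read 171 and 154 in C57, 130 and 170 in DBA, and 90.6 and 46.2 in ICR. Both C57 arrays were highest and both ICR arrays lowest after normalization. The ICR minus C57 difference was -0.48 ± 0.25 (adjusted p = 0.342) and DBA minus C57 -0.31 ± 0.25 (adjusted p = 0.730), neither of which passed. The GTPases and the Isg15 system thus lay on opposite sides of 0 in DBA minus C57, with medians of 0.94 and -0.37 (log2). The median of Isg15 and Usp18, neither of which was called there, was -0.155 without the C57 control array, -0.58 without the C57 smoked array and -0.18 unscaled.

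Rsad2, the radical-SAM enzyme viperin that makes a chain-terminating nucleotide, read 35.7 and 38.0 in C57, 92.0 and 78.4 in DBA, and 101 and 40.1 in ICR. Its normalized levels were 5.38 and 5.46 in C57, 6.39 and 5.90 in DBA, and 6.86 and 6.57 in ICR, with C57 lowest and ICR highest and no overlap. Unscaled, the ICR smoked array lay below both DBA arrays, so ICR was highest only after normalization. The ICR minus C57 difference of 1.30 ± 0.29 had adjusted p = 0.0591 and the DBA minus C57 difference of 0.73 ± 0.29 had adjusted p = 0.359. Adar was higher in DBA than in C57 by 0.91 ± 0.35 (adjusted p = 0.337), and its dimmer probe set 102741_at, not tested, read 17.2 and 10.1 in C57, 59.0 and 61.3 in DBA, and 21.9 and 19.96 in ICR. Unscaled, both Adar probe sets thus read highest on the DBA arrays. After normalization the ICR smoked array lay above the DBA smoked array on 102741_at (5.68 against 5.59), so the dimmer probe set did not keep this order. Ifitm3 differed by 0.43 ± 0.18 in DBA minus C57 (adjusted p = 0.402), with both DBA arrays above the others.

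**Figure D3:**
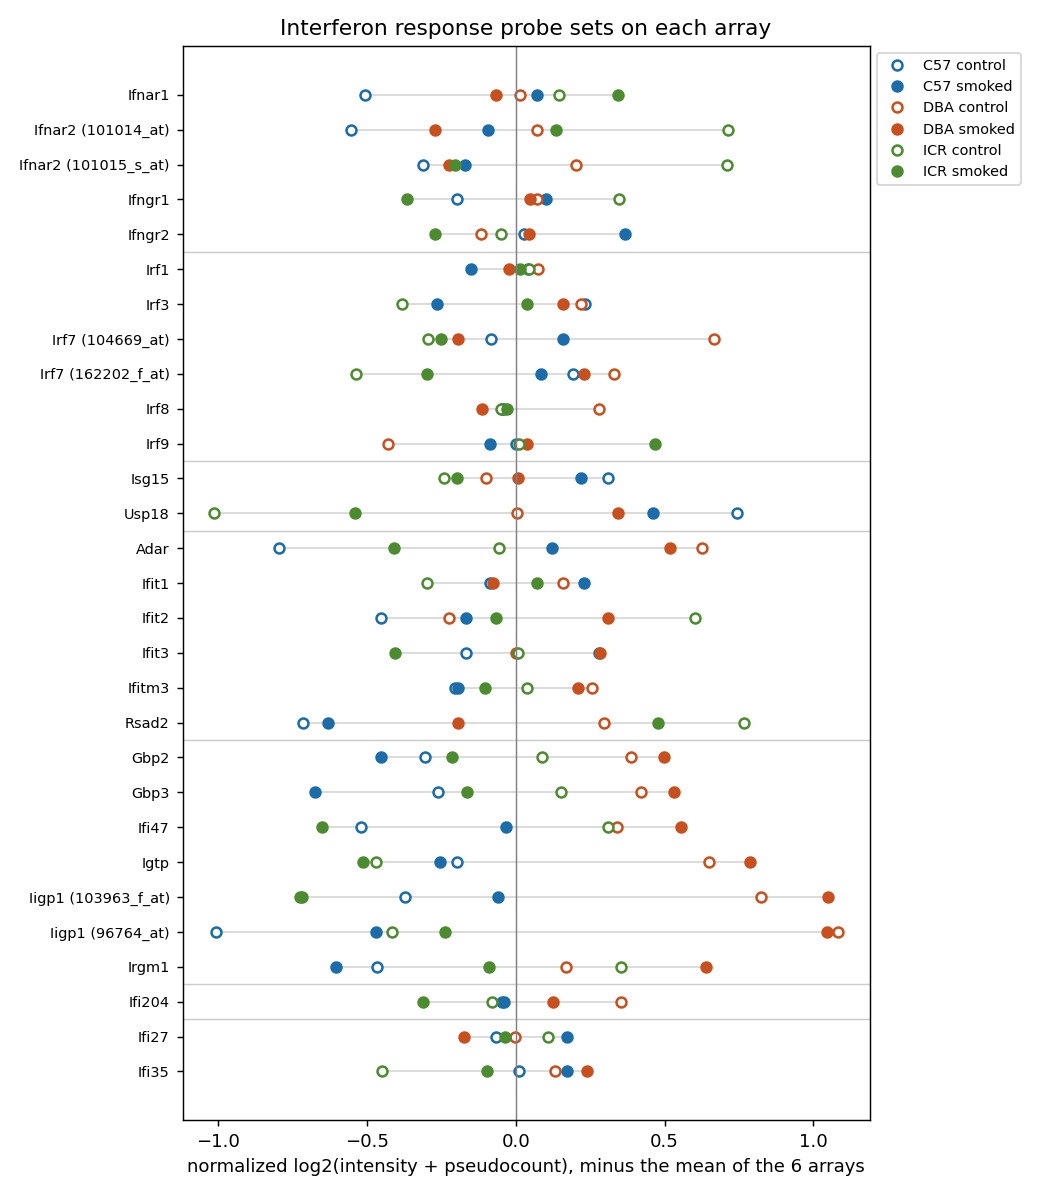
Each row is an interferon response probe set, and the horizontal axis is its normalized log2 level minus the mean of the 6 arrays; open points are control and filled points smoked arrays, coloured by strain, and grey lines join the lowest and highest. In 10 of 29 rows both DBA points lie to the right of the other 4, 6 of them among the GTPases, against 9.59% of all probe sets tested.

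The remaining groups had no call between strains. The receptors had DBA minus C57 differences of -0.23 to 0.23 (log2) and 0 calls. Ifnar2 was higher in ICR than in C57 by 0.75 ± 0.29 on 101014_at (adjusted p = 0.225), with both ICR arrays above the other 4 after normalization, and by 0.49 ± 0.31 on 101015_s_at. Unscaled, the ICR smoked array read lowest of the 6 on 101014_at. In ICR minus C57, 4 of 5 receptor probe sets lay above 0 after normalization, with a median of 0.46, but 0 of 5 unscaled, where their median was -0.24 beside -0.73 for all probe sets. The 6 probe sets of regulatory factors had differences of -0.15 to 0.21 in DBA minus C57 and -0.56 to 0.28 in ICR minus C57. Ifi204 read 102 and 99.1 in C57, 144 and 150 in DBA, and 80.8 and 33.5 in ICR, and DBA exceeded C57 by 0.28 ± 0.25 (adjusted p = 0.765). The suffix of this probe set, 98465_f_at, marks shared probes, as does that of 162202_f_at for Irf7, so related genes may add to both. Ifi27, a mitochondrial and nuclear-envelope protein, and Ifi35 differed by -0.14 and 0.09.

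Over all members, 10 of 29 had both DBA arrays above the 4 others (34.5%), where 9.59% of all probe sets did, and 0 had both below, where 11.2% did. Both ICR arrays were lowest for 8 of 29 (13.8% of all probe sets) and both C57 arrays for 6 of 29 (10.2%). Unscaled, the DBA arrays were highest for 16 of 29 members and 27.2% of all probe sets, and with a common median for 10 of 29 and 6.94%. The ICR arrays were lowest for 16 of 29 unscaled, where 54.3% of all probe sets had them lowest, and for 8 of 29 with a common median (16.9%). The C57 arrays were lowest for 1 of 29 unscaled (0.778%) and for 2 of 29 with a common median (6.57%), so that this count did not hold. In DBA minus C57 after quantile normalization, 23 of 29 members lay above 0, against 46% of all probe sets. There 9 of 29 had an unadjusted p below 0.05, all higher, against 6.05% of all in that direction. Above 0 were 24 members unscaled and 18 with a common median, where the median of all probe sets was 0.14 and -0.16 (log2). Several members share regulators and family, so they are not independent, and these counts describe the list.

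**Figure D4:**
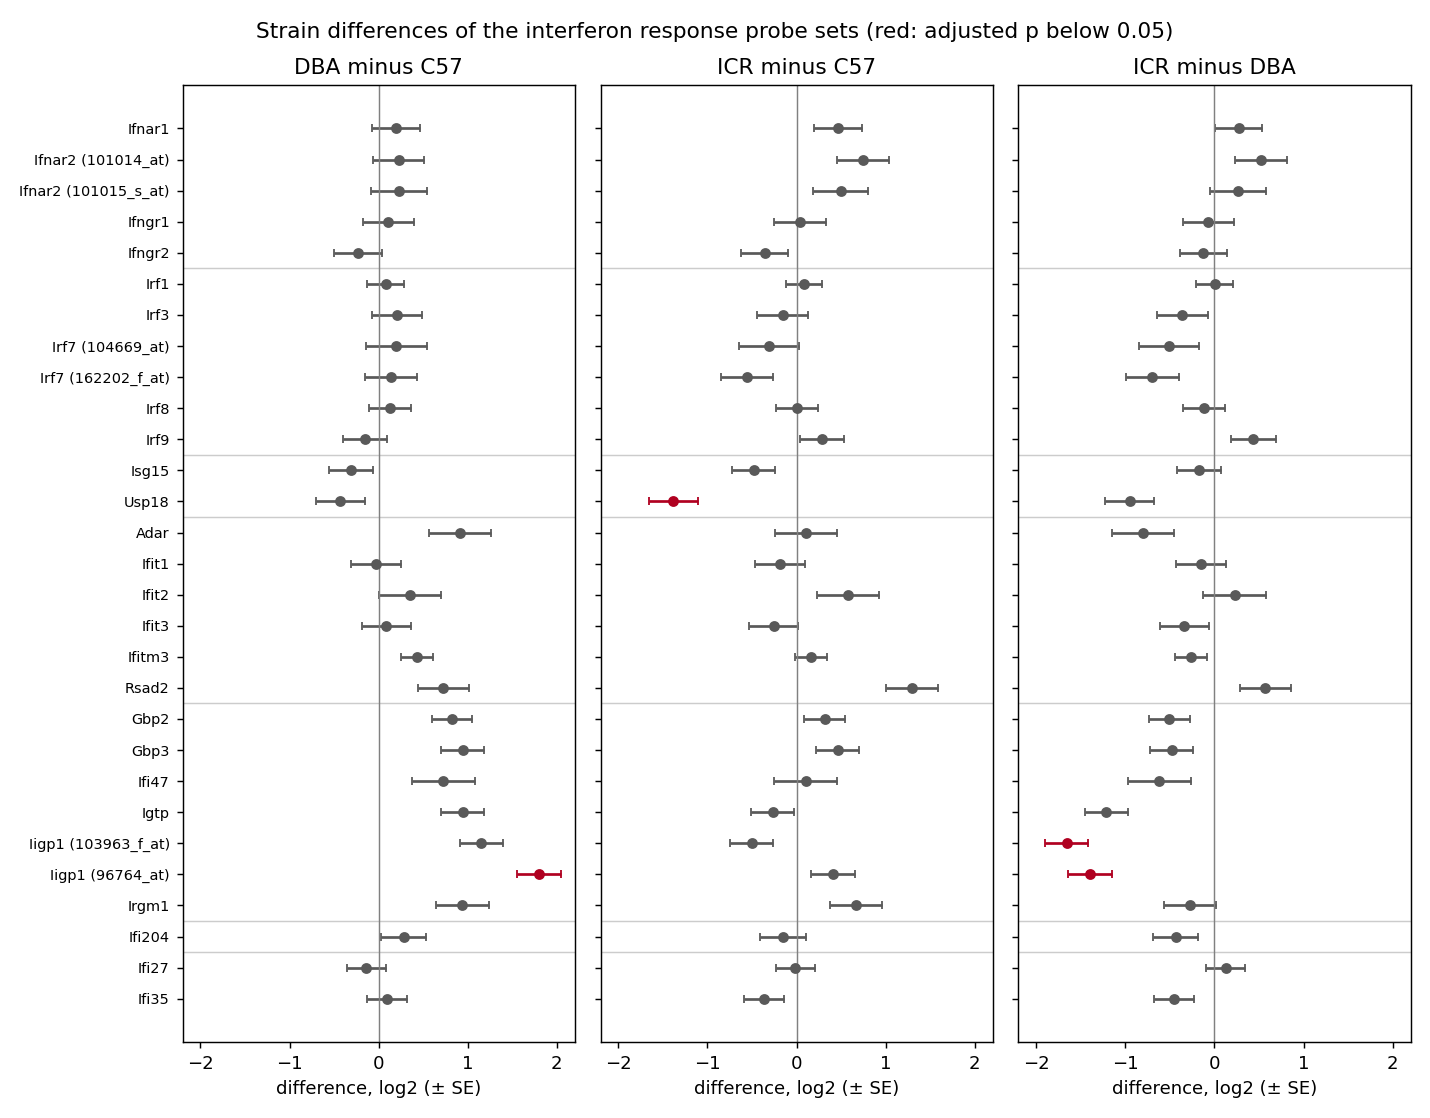
The 3 panels give the DBA minus C57, ICR minus C57 and ICR minus DBA differences of the interferon response probe sets on the log2 scale, with bars of 1 SE; red marks adjusted p below 0.05. Iigp1 is red at 1.80 on the left and at -1.66 and -1.39 on the right, Usp18 is red at -1.38 in the middle, and all 7 GTPase probe sets lie right of 0 on the left.

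Members too dim to test read low on every array. Mx1 and Mx2, dynamin-like GTPases that trap viral nucleoproteins, read 4.95 to 29.3 and 12.6 to 35.1. Eif2ak2, the kinase PKR that halts translation on double-stranded RNA, read 11.7 to 53.8, with the DBA arrays highest at 53.8 and 44.7 unscaled; after normalization the C57 smoked array (5.25) lay above the DBA smoked array (5.21). The second Irf3 probe set (162425_f_at) read 6.12 to 27.6, and the Ifi204 probe sets 161180_r_at and 98466_r_at read 3.34 to 19.3 and 2.31 to 11.1. On a dim probe set, lower transcript and signal near background cannot be told apart.

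Other genes of the pathway were taken from lists of ligands, JAK-STAT signalling, further regulatory factors, nucleic acid sensors, other induced effectors, and class I antigen presentation, with 64 probe sets of 50 genes tested. None was called for smoke. Class I antigen presentation had a median DBA minus C57 difference of 0.47 (log2) with 14 of 19 probe sets above 0, JAK-STAT signalling 0.13 with 9 of 10, and the other induced effectors, of which Ifih1 is on the sensor list too, 0.06 with 16 of 27, beside -0.03 and 46% for all probe sets. In DBA minus C57, 1 was called higher, H2-D1 (97541_f_at), and 1 lower, Trim21 (92942_at), and in ICR minus C57 the same probe sets were called in the same directions. H2-D1, the heavy chain of a class I molecule, read 282 and 270.4 in C57, 1908 and 2401 in DBA, and 1168 and 755 in ICR, a DBA minus C57 difference of 2.86. Its other probe sets, 97540_f_at and 101886_f_at, differed by 0.79 and 0.63 (log2) and were not called, so the probe sets of this gene disagree in size. These H2-D1 probe sets bear the suffix for shared probes described for Iigp1, so related genes may add to their signal. Trim21, an antibody receptor of the cytosol, differed by -1.65 on the called probe set and by 0.17 on 102678_at, so its probe sets disagree in direction. In ICR minus DBA, 1 was called lower, Tapbp (102689_at, -1.27), the peptide-loading factor tapasin, whose other probe sets differed by -0.18 and -0.23. Gbp7, a guanylate-binding protein outside the member list, was picked after its value was seen. It differed by 0.87 in DBA minus C57, with adjusted p = 0.197. The other induced effectors, its list, ran from -1.65 to 0.87 there, with 11 of 27 below 0.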

How the data were processed

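Lung RNA was measured on 6 Affymetrix arrays, 1 for each strain and exposure. The authors deposited 1 intensity per probe set and array, linear, from 0.0305 to 10579. The sources used here do not give how these were summarised and scaled. RNA was extracted with Trizol and primed with oligo(dT) for biotin labelling by in vitro transcription, per the labels' protocols.

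Values were transformed as log2 of intensity plus 8.05 (the 20th percentile), and all 12488 probe sets were quantile normalized. The 66 control probe sets were then dropped, and the 7453 probe sets whose mean exceeded the 40th percentile were tested. Smoke and strain were fitted together in limma 3.58.1 (R 4.3.3; lmFit and trended eBayes), strain being the block that pairs the 2 arrays of a strain and 2 residual degrees of freedom. The response of 1 strain was an extra smoke effect, with 1 residual degree of freedom. All tests were 2-sided and adjusted (Benjamini-Hochberg) over all 7453, and called means adjusted p below 0.05. Fold changes are on the scale of intensity plus 8.05, which understates those of dim genes. Symbols came from the platform annotation, where 10855 probe sets had 1 symbol, 396 several and 1237 none. The number of arrays limits precision. The members, lists and tests were chosen with earlier results of these data known. Genes named are the members, the pathway genes that were called with their other probe sets, and a few pathway genes (Ifng, Ifnb1, Gbp7) chosen after their values were seen. Alternatives were another pseudocount (1 or 32), filter, scaling and variance prior, no strain block, and each array or pair left out. Choices made after seeing the data were normalizing without the control probe sets and the counts by role and by position of the arrays under each scaling, and the motif medians without the GTPases. Figures used Python 3.11.15 and matplotlib 3.10.9.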

Additional observations from a re-analysis of the deposited data

How the results depend on the processing

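All calls and counts rest on 1 array per strain and exposure, and no alternative turned the direction of a called member. Without scaling the median of all probe sets moved to -0.21 (log2) for smoke, 0.14 for DBA minus C57, -0.73 for ICR minus C57, -0.89 for ICR minus DBA and -0.87 within ICR, and the split of all calls was 64 higher and 21 lower, 7 and 138, and 4 and 257 in the strain comparisons, against 65 and 64, 69 and 102, and 38 and 49. With a common median the splits were 54 and 85, 50 and 175, and 31 and 38. Members called in DBA minus C57 numbered 2 with the filter at the 60th percentile and 0 unscaled, where 125 and 85 of all probe sets tested were called. In ICR minus C57 they numbered 0 with no filter and 0 with no mean trend, where 44 and 116 of all were called. In ICR minus DBA they numbered 0 with no filter, 1 with no mean trend and 4 unscaled, where 38, 63 and 261 of all were called. Leaving out 1 array gave 0 to 2 members called in ICR minus C57 and 0 to 3 in ICR minus DBA. Calls over all probe sets also varied widely with the array left out. In both comparisons they were fewest where 0 members were called and most where the member count was highest. The member counts with an array left out thus followed the total and say nothing particular of the members. Unscaled, 10 members were called for the ICR response, where 1787 of all probe sets were, 7 higher and 1780 lower. Also unscaled, 15 members differed 2-fold within ICR, where the median of all probe sets was -0.87. At 1.5-fold, 1 member differed within C57, 1 within DBA and 4 within ICR, and with a pseudocount of 1, 1 differed 2-fold in C57 and 1 in ICR. The shares of all probe sets that differed so within a strain were not counted for these alternatives. The causes were not tested. Iigp1 (96764_at) in DBA minus C57 was called in 14 of 15 alternatives (1.57 to 2.04, adjusted p 0.000106 to 0.0875), and Usp18 in ICR minus C57 in 10 of 15 (-2.11 to -1.04, adjusted p 0.000537 to 0.487). In ICR minus DBA, Iigp1 was called in 12 of 15 on 103963_f_at (-2.54 to -1.41, adjusted p 0.00163 to 0.0913) and in 10 of 15 on 96764_at (-2.30 to -1.19, adjusted p 0.00552 to 0.145). The strain block pairs control and smoked arrays; without this block 0 members were called for smoke, as with it.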
